A study of Mus musculus with 45 samples.

Results

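Cardiac sarcomere genes were followed through the lungs of mice with and without mammary tumors. The set was a written list of 10 cardiac muscle genes, Myh6, Myh7, Actc1, Tnnt2, Tnni3, Myl7, Myl4, Sln, Ryr2 and Nppa, out of 55367 gene symbols measured, and all 10 had enough counts to be tested in lung. Female Balb/c mice carried a tumor grown from 67NR, 4T07 or 4T1 triple negative breast cancer cells placed in the mammary fat pad, or were healthy controls without a tumor, and tissues were taken on day 14. The 3 lines are sister lines of one tumor: 67NR is nonmetastatic, 4T07 invasive but nonmetastatic, and 4T1 metastatic to the lung. All mice, controls included, carried porous polycaprolactone scaffolds under the skin of the back. The series holds 45 RNA sequencing libraries, 3 per group, from whole lungs, scaffolds and spleens of the 4 groups of mice and from the tumors of the 3 lines. Libraries are named here by the numbers 1 to 45 that their labels carry.

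The sarcomere is the contractile unit of striated muscle, in which myosin motors pull on actin filaments under the control of the troponin complex. Cardiac muscle cells build it from their own versions of these proteins and pair it with calcium-handling proteins of the sarcoplasmic reticulum. Such cells are not confined to the heart. In mice, a sleeve of heart muscle lines the wall of the pulmonary veins and follows their branches into the lung, so that lung tissue can hold cardiac muscle cells. In whole tissue, fewer cells of a type and less RNA per cell cannot be told apart.

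Promoter sequences are shown for 5 of the genes, as examples of members that differed in how they varied over the lungs. Tnnt2 and Tnni3 also varied with most of the set and are not shown. Myl7, Actc1 and Nppa varied with most of the set, and the paired heavy chain genes Myh6 and Myh7 differed in spread within groups. Sequences were taken from RefSeq promoters of GRCm38.p6, which hold 9 of the 10 genes, and are written 5′ to 3′ on the strand of the gene. Only bases before the transcription start are shown. Capitals mark a CArG box (bound by serum response factor), an MCAT element (CATTCC, bound by TEAD factors), a GATA site (GATAA) or a TATA box (TATAAA), found on either strand. The stretches lie at chr11:5898783-5898912 (Myl7, minus strand), chr2:114052876-114053005 (Actc1, minus strand), chr4:148000592-148000721 (Nppa, plus strand), chr14:54966778-54966837 (Myh6, minus strand) and chr14:54994797-54994856 (Myh7, minus strand).
Myl7: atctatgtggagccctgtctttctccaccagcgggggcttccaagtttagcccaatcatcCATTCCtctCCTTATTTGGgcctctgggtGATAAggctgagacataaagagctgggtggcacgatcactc
Actc1: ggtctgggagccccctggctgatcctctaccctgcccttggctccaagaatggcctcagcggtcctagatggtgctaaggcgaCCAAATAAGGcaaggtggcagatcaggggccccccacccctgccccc
Nppa: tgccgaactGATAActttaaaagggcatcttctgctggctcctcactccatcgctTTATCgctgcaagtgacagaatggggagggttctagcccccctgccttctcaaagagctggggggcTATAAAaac
Myh6: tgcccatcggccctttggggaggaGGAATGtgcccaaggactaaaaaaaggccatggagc
Myh7: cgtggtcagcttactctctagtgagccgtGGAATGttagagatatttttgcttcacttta

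The CArG box was present in the 250 bases before the start of 2 of the 9 genes, Actc1 and Myl7, against 1.40% of 27025 gene promoters. MCAT was found in 4 (Tnnt2, Myl7, Myh6 and Myh7) against 12.6% of all promoters, and Myh6 and Myh7 carried it on the opposite strand at almost the same distance, from base -206 and base -201 before the start. GATAA was found in 3 (Tnnt2, Nppa and Myl7) against 23.0%, the T-box letters AGGTGTG in 2 (Nppa and Tnni3) against 5.14%, and TATAAA in 1 (Nppa) against 13.0%. The NKX2-5 letters AAGTG were in 5 of 9 against 40.8%, the E-box CANNTG in 7 of 9 against 66.0%, and the MEF2 motif in 0 of 9 against 3.01%. These matches are descriptions of letters in a window and not of binding.

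Depth and sample identity were checked before the members were compared. Lung libraries held 4609634 to 7081417 counts, so that the floor of 3 counts used here corresponds to 0.424 to 0.651 counts per 1000000 counts of a library (CPM). The labelled tissue was borne out by its defining genes: the summed level of 10 lung epithelial genes, Scgb1a1 and Sftpc the most abundant, was 6338 to 40242 CPM in the 12 lungs and at most 464 CPM in any scaffold, spleen or tumor. Lungs of 4T07 mice held less of this signal, 6338 to 15533 CPM against 38107 to 40242 CPM in controls. They also held more of a sum of 8 neutrophil genes, 23416 to 28001 CPM against 241 to 308 CPM, and 4T1 lungs held 11692 to 27732 CPM of it. One library stood apart for the cardiac genes. The 67NR lung of library 15 held 685 CPM of the 10 genes together, and the other 11 lungs held 32.0 to 201 CPM. At the other end, the 4T07 lung of library 26 held 32.0 CPM, with 155 counts in all. Results that rest on either library are given with and without it.

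**Figure D1:**
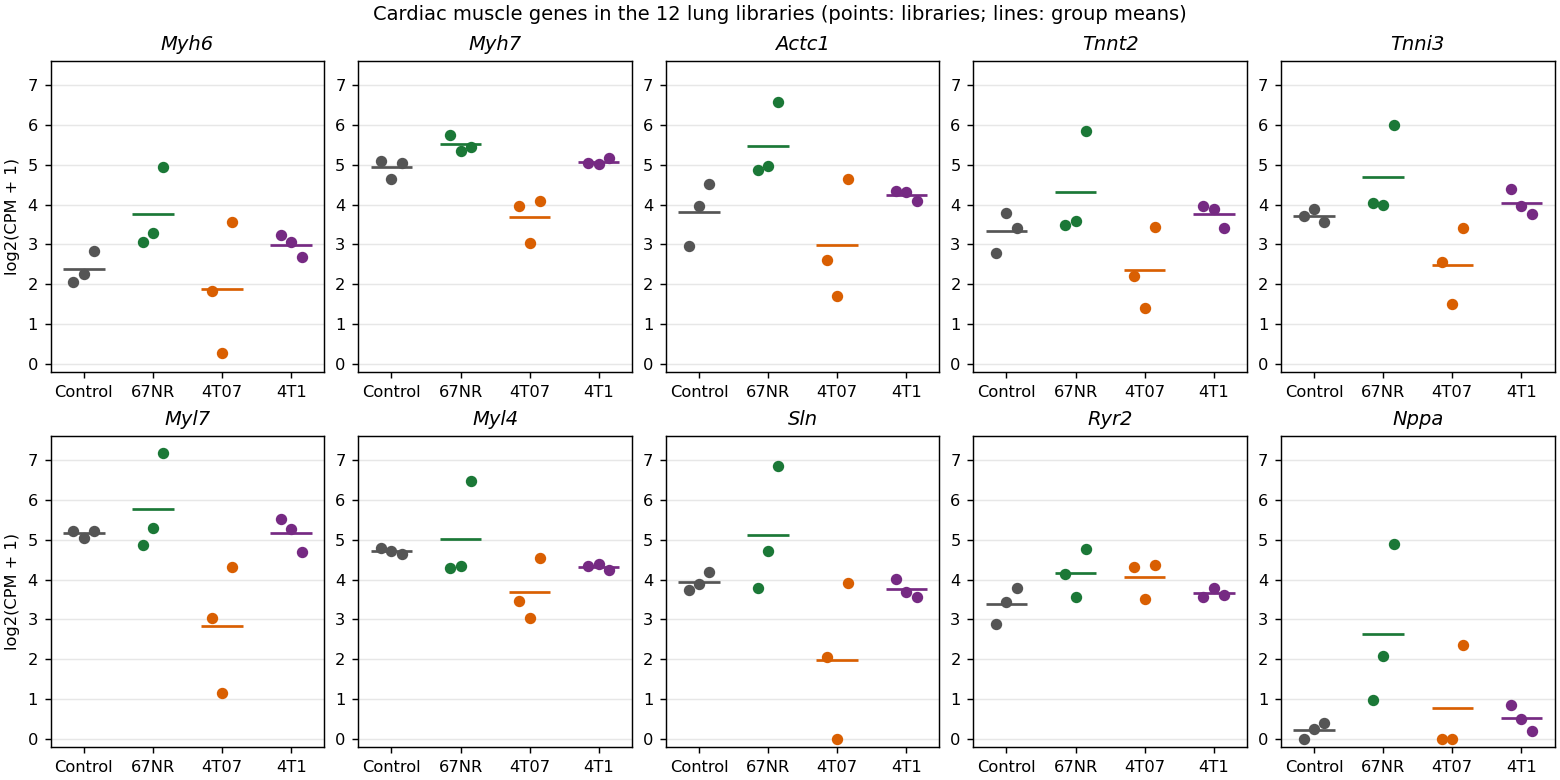
Each panel plots 1 cardiac gene as log2(CPM + 1) in the 12 lung libraries, with points for libraries, lines for the means of the 3 lungs of a group, and the groups along the horizontal axis. The highest 67NR point, library 15, stands above all other lungs in 9 panels but not in that of Myh7, and the 4T07 points spread widely for most genes.

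The thick filament motors differed in their spread within groups. Myh6, the alpha myosin heavy chain of atrial and adult mouse heart muscle, stood at 3.14, 3.79 and 6.15 CPM in control lungs, at 7.28, 8.77 and 29.5 CPM in 67NR lungs, at 2.54, 0.21 and 10.8 CPM in 4T07 lungs, and at 8.37, 7.34 and 5.40 CPM in 4T1 lungs. Every 67NR lung was above every control lung, and the 4T07 lungs reached both below and above the controls. Myh7, the beta chain of fetal heart and slow skeletal muscle and the genomic neighbour of Myh6, stood at 33.1, 24.0 and 32.2 CPM in control, 53.1, 39.6 and 42.2 CPM in 67NR, 14.6, 7.23 and 16.1 CPM in 4T07, and 31.7, 31.3 and 35.1 CPM in 4T1 lungs. Here the 3 lungs of a group lay closer together than for Myh6, all 4T07 lungs were below all others, and library 15 was between its 2 group mates. Myh7 in 4T07 lungs was at 0.424 of its control level by the means (log2 fold change -1.18 ± 0.22 SE, adjusted p = 0.000183, edgeR quasi-likelihood F test, corrected by Benjamini-Hochberg). Myh6 was not called in that comparison (0.10 ± 0.67, adjusted p = 0.923), but its error was wide, and the difference between the genes was not tested. The genes encode near-identical proteins, and neither the strand setting of the counting nor its treatment of shared reads is given, so part of the counts may be split between them or belong to the antisense transcript that overlaps Myh7.

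The counts of the pair were set against each other, since the libraries tag the 3′ end of a transcript once. These shares take the counts as assigned to the right gene and collapsed by identifier, neither of which is given. Myh6 made up 8.65% to 16.0% of the Myh6 and Myh7 counts in control lungs and 13.3% to 20.9% in 4T1 lungs. It reached 41.1% in library 15 (exact binomial 95% interval 36.8% to 45.6%) and 40.3% in the 4T07 lung of library 27 (31.6% to 49.5%), while the 4T07 lung of library 26 held 2.78% (0.0703% to 14.5%). Such intervals cover counting error only. Libraries 15 and 27 were thus alike in this share although they came from different groups of mice and held 35821 and 15533 CPM of lung epithelial genes. The other 10 lungs lay at or under 20.9%.

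**Figure D2:**
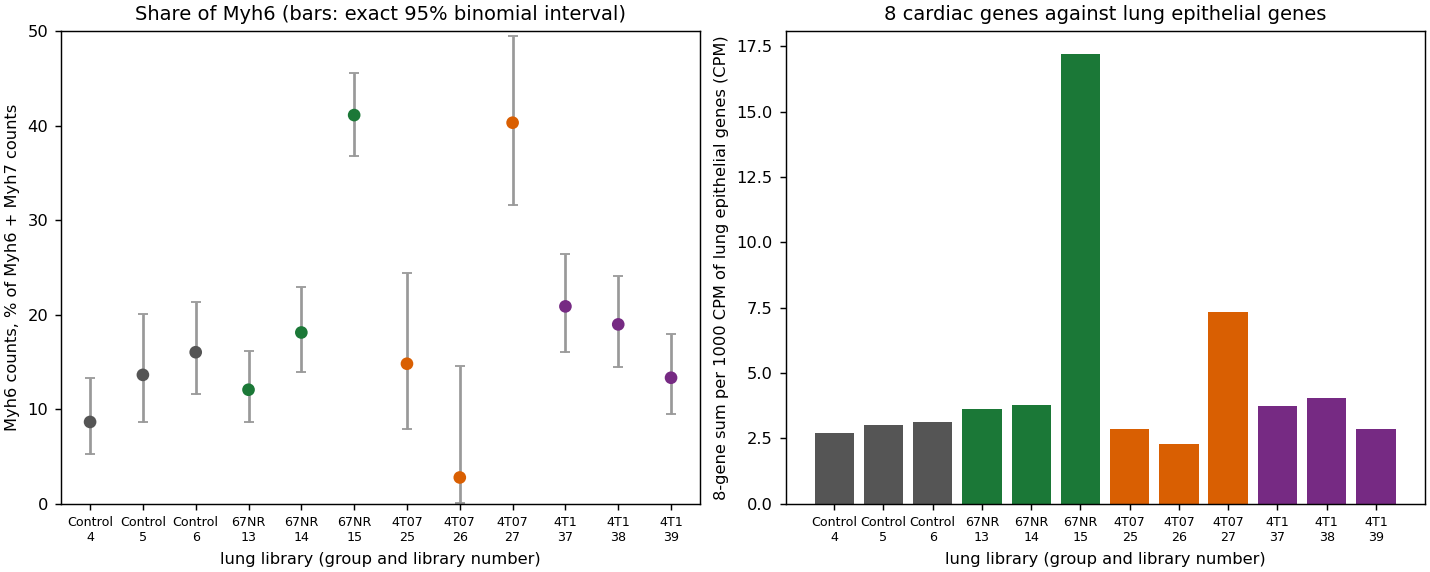
The left panel plots Myh6 counts as a percentage of Myh6 plus Myh7 counts in each lung, with exact 95% binomial intervals as bars, and the right panel plots the summed CPM of 8 cardiac genes (all but Ryr2 and Myh7) per 1000 CPM of lung epithelial genes. Libraries 15 (67NR) and 27 (4T07) are the highest in both panels, at 41.1% and 40.3% on the left and at 17.2 and 7.32 on the right.

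The thin filament genes had their highest level in library 15 and their lowest in library 26, as did Myh6. Actc1, the cardiac alpha actin, stood at 6.80, 14.6 and 21.8 CPM in control, 28.2, 30.0 and 94.3 CPM in 67NR, 5.08, 2.27 and 23.9 CPM in 4T07, and 19.2, 18.9 and 15.9 CPM in 4T1 lungs. The control lungs themselves differed more than 3-fold, and all 3 67NR lungs were above them. Tnni3, the inhibitory subunit of cardiac troponin, stood at 12.0, 13.9 and 10.8 CPM in control, 15.5, 14.9 and 63.4 CPM in 67NR, 4.87, 1.86 and 9.55 CPM in 4T07, and 20.1, 14.7 and 12.6 CPM in 4T1 lungs. All 4T07 lungs were below all other lungs for Tnni3. Tnnt2, which anchors the troponin complex to tropomyosin, ran from 5.93 to 12.8 CPM in control, from 10.2 to 56.3 CPM in 67NR, from 1.65 to 9.76 CPM in 4T07, and from 9.59 to 14.6 CPM in 4T1 lungs, so that 4T07 and control lungs overlapped.

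The light chains are the atrial signature of the list, since Myl7 and Myl4 are the regulatory and essential myosin light chains of atrial muscle. Myl7 stood at 36.1, 31.7 and 36.6 CPM in control, 28.0, 38.3 and 142.9 CPM in 67NR, 7.20, 1.24 and 19.1 CPM in 4T07, and 44.9, 37.6 and 24.9 CPM in 4T1 lungs. The control lungs were within a narrow band, and the highest 4T07 lung was below the lowest lung of any other group. Myl4 ranged from 24.1 to 26.8 CPM in control, from 7.23 to 22.3 CPM in 4T07, and from 17.8 to 19.9 CPM in 4T1 lungs. In 67NR lungs it stood at 18.6, 19.2 and 87.4 CPM, so that 2 lungs were below every control lung and 1 was more than 3-fold above.

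Among the membrane and secreted members, Sln, the sarcolipin that inhibits the calcium pump of atrial muscle, had one of the widest spreads: 12.4, 13.7 and 17.2 CPM in control, 12.8, 25.2 and 114 CPM in 67NR, 3.18, 0 and 14.1 CPM in 4T07, and 15.1, 12.0 and 10.8 CPM in 4T1 lungs. The 0 in library 26 allows a level of up to 0.619 CPM. Nppa, the atrial natriuretic peptide hormone, had 0, 1 and 2 counts in control lungs, 5, 20 and 197 counts in 67NR lungs, 0, 0 and 19 counts in 4T07 lungs, and 5, 3 and 1 counts in 4T1 lungs. Pooled over the groups, Nppa was 70.6-fold higher in 67NR than in control lungs, with an interval for counting error of 23.9 to 345. Without library 15 the ratio was 12.8 (3.90 to 66.2). Ryr2, the calcium release channel of the heart that neurons and other cells also use, stood at 6.45, 9.92 and 12.8 CPM in control, 16.7, 10.9 and 26.0 CPM in 67NR, 19.1, 10.3 and 19.5 CPM in 4T07, and 10.8, 12.9 and 11.2 CPM in 4T1 lungs. Control and 4T07 lungs overlapped for Ryr2, and the 4T07 mean was 1.68-fold higher (log2 fold change 0.81 ± 0.29 SE, adjusted p = 0.0301), short of the 2-fold threshold.

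The comparison of 67NR with control lungs asks what a nonmetastatic tumor does to the lung. Of the 10 genes, 5 rose, with a fold change over 2 and an adjusted p under 0.10, the thresholds for all lung comparisons: Actc1 (log2 fold change 1.72 ± 0.50 SE, adjusted p = 0.0402), Myh6 (1.70 ± 0.58, 0.0749), Sln (1.72 ± 0.60, 0.0867), Tnni3 (1.25 ± 0.43, 0.0786) and Nppa (adjusted p = 0.00999). Over all 21937 genes tested, 2.52% rose and 1.73% fell, or 3.56% and 1.38% when libraries were scaled by their totals alone, which moved the median of all genes by 0.104. The median log2 fold change was 1.31 over the 10 genes and 0.03 over all genes. All 5 calls rested on library 15. Without it 0 of the 10 genes passed, with a median log2 fold change of 0.35, and DESeq2's Wald test on all libraries called 1, Nppa. When 1 control lung was left out, 1 gene was called without library 4 and 1 without library 5, Nppa in both. In these fits 1.08% and 1.25% of all genes rose. For Myh6, Actc1, Tnni3 and Nppa the 2 other 67NR lungs were still above all 3 controls. For Tnni3 the gap was narrow, from 13.9 CPM in library 5 to 14.9 CPM in library 14. The share of all genes that separated in this way was not counted, so this order is a description only. Without library 15, ratios of the means were 1.84 for Myh6, 2.02 for Actc1 and 1.24 for Tnni3. For Sln the 2 other 67NR lungs overlapped the controls. Myh7 was not called (log2 fold change 0.48 ± 0.20 SE, adjusted p = 0.146, edgeR quasi-likelihood F test). All 3 67NR lungs were above all 3 controls for it, at a ratio of 1.56 without library 15. Myl7 and Myl4, by contrast, had ratios of 0.953 and 0.741 without that library.

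In 4T07 lungs 3 genes fell against control: Myh7 (above), Myl7 (log2 fold change -1.87 ± 0.57 SE, adjusted p = 0.0105) and Tnni3 (-1.12 ± 0.52, adjusted p = 0.0885). Across all genes tested 13.7% fell in this comparison, so that a fall was common. The other 7 members were not called, and the median over the 10 was -0.87. The count turned on single lungs: without library 26, the lowest, 1 fell (Myl7, -1.35) and Ryr2 rose (1.05), and without library 27, the highest, 8 fell. Lung epithelial genes fell beside them: 8 of 10 were called lower, with a median log2 fold change of -1.41, among them Sftpc (-2.11) and Scgb1a1 (-1.18). All 8 neutrophil genes rose, with a median of 6.25, led in level by S100a8 (6.66) and S100a9 (6.67). When libraries were scaled to the lung epithelial genes, a choice made after seeing the data, the median of all genes moved up by 1.82 on the log2 scale, 69.9% of genes were called higher and 0.570% lower (15.3% and 13.7% otherwise), and of the members 0 were called lower and 4 higher (Actc1, Myh6, Nppa and Ryr2). On that scale Myh7 stood at 0.54, Tnni3 at 0.50 and Myl7 at -0.34, all short of the threshold. The part of the epithelial and neutrophil signal in the members' fall was not tested.

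Set against the epithelial signal lung by lung, the 8 genes other than Ryr2 and Myh7 summed to 2.71 to 3.15 CPM per 1000 CPM of lung epithelial genes in control lungs and to 2.88, 2.28 and 7.32 in 4T07 lungs. They stood at 3.61, 3.78 and 17.2 in 67NR and at 2.84 to 4.04 in 4T1 lungs. By this ratio libraries 25 and 26 were near the controls, and library 27 was above every lung but library 15. Myh7 came to 0.619 to 0.869 per 1000 in control lungs, 0.994 to 1.58 in 67NR, 1.03 to 1.15 in 4T07, and 0.834 to 1.03 in 4T1 lungs.

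In 4T1 lungs 0 of the 10 genes differed from control by edgeR or by DESeq2, and 0 had an unadjusted p under 0.05 in either. In the same comparison 4.61% of all genes were called in either direction, and all 8 neutrophil genes rose. The largest fitted differences among the members with counts in every library were those of Myh6 (log2 fold change 0.70 ± 0.61 SE, adjusted p = 0.567), Tnnt2 (0.45 ± 0.52, 0.69) and Myl4 (-0.41 ± 0.43, 0.647). For Myh7 the estimate was tighter, at 0.15 ± 0.20.

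**Figure D3:**
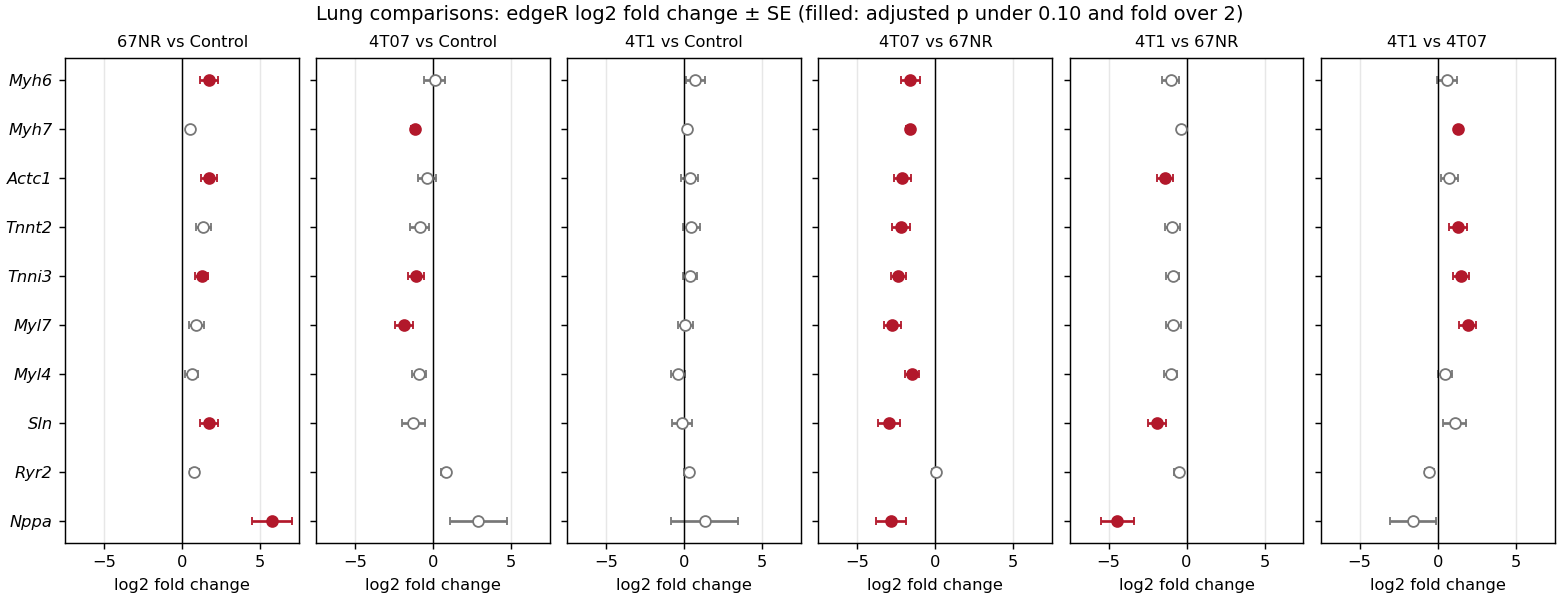
The 6 panels plot the edgeR log2 fold change of each member in a lung comparison, with bars for the standard error and filled points for adjusted p under 0.10 with a fold change over 2. The panel of 4T1 against control has 0 filled points and that of 4T07 against 67NR has 9. Fitted values of Nppa against control or 4T07 rest on groups with few counts.

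Between tumor-bearing groups, 9 of the 10 genes were lower in 4T07 than in 67NR lungs, against 15.3% of all genes, and the exception was Ryr2 (log2 fold change 0.03 ± 0.28 SE, adjusted p = 0.939). The falls ran from -1.51 ± 0.45 for Myl4 (adjusted p = 0.00941) to -2.99 ± 0.69 for Sln (adjusted p = 0.00143). Without library 15, 5 were called (Actc1, Myh7, Myl7, Sln and Tnni3), and without both 15 and 26 there were 2, Myh7 (-1.39) and Myl7 (-1.14). Scaled to lung epithelial genes, 3 were lower (Myl7, Sln and Nppa), Ryr2 was higher, and 63.6% of all genes were higher and 0.579% lower (14.4% and 15.3% otherwise). In 4T1 against 67NR lungs 3 were lower, Actc1 (-1.38 ± 0.49, adjusted p = 0.0925), Sln (-1.90 ± 0.61, adjusted p = 0.0615) and Nppa (-4.44 ± 1.07, adjusted p = 0.0128), against 1.8% of all genes that fell and 3.23% that rose, or 2.74% and 2.76% with library totals alone. Of the 10 genes 0 were called without library 15, 5 without library 13, and 1 without any one of libraries 37, 38 and 39, and DESeq2 called 0 of the 10, with 1 at an unadjusted p under 0.05. In 4T1 against 4T07 lungs, the comparison of a metastatic with an invasive nonmetastatic line, 4 were higher against 11.6% of all genes: Myh7 (1.33 ± 0.22, adjusted p = 6.05e-05), Myl7 (1.92 ± 0.56, adjusted p = 0.00992), Tnni3 (1.50 ± 0.50, adjusted p = 0.0236) and Tnnt2 (1.30 ± 0.59, adjusted p = 0.0892). Myh7 and Myl7 were called without library 26 as well, 7 genes were called without library 27, and 0 were called higher and 3 lower when scaled to lung epithelial genes, where 0.264% of all genes were higher and 66.4% lower (11.6% and 11.9% otherwise). These comparisons share their control, 67NR or 4T07 lungs, so their values are not independent of each other.

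Most members varied together over the lungs. Over the 12 lungs Myh6 had its highest Pearson's r with Actc1 (r = 0.964, Spearman's rho = 0.909, permutation p = 1e-05, the smallest the resamples can give, and 0.00019) and its highest rho with Nppa (rho = 0.965, permutation p = 1e-05), and r was 0.808 to 0.937 for Sln, Tnnt2, Tnni3, Myl7, Myl4 and Nppa, with permutation p from 0.00014 to 0.00563. Adjusted by Benjamini-Hochberg over the 9 relations computed, Pearson's r passed 0.05 for 8 of the 9 genes and Spearman's rho for 6. Myh7 had r = 0.701 (permutation p = 0.0137) and rho = 0.476 (permutation p = 0.121), and Ryr2 had r = 0.558 (permutation p = 0.0582) and rho = 0.538 (permutation p = 0.0757). The lowest rho was that of Myl4, at 0.427 (permutation p = 0.168). Nppa was at or under the floor of 3 counts in all control lungs and in libraries 25, 26, 38 and 39. Its r and rho therefore order values of few counts in these lungs. The permutations shuffled all 12 lungs without regard to group, so these p-values also take in differences between groups. On deviations from the group means, r was 0.957 for Actc1, 0.977 for Sln, 0.968 for Myl7, 0.756 for Ryr2 and 0.566 for Myh7. Much of this rested on libraries 15 and 26, the 2 lungs farthest from the median of Myh6. Without them r remained at 0.895 for Actc1, 0.822 for Nppa, 0.697 for Tnnt2 and 0.668 for Sln, and came to 0.534 for Tnni3, 0.441 for Myl7, 0.291 for Ryr2, 0.277 for Myh7 and 0.253 for Myl4.

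Spread within groups set the members apart in size from most genes. The median within-group SD of log2(CPM + 1) was 0.932 over the 10 genes and 0.212 over 12092 genes with a mean of at least 5 CPM in lung. It was 1.27 for Sln, 1.23 for Nppa, 1.03 for Myl7 and 1.00 for Myh6, but 0.448 for Ryr2 and 0.334 for Myh7. Without library 15 the median over the members was 0.699 and that over all genes 0.221. The spread of Myh7 with all libraries was above that of 86.2% of those genes. Levels were not matched: the members had means of 3.23 CPM (Nppa, under the limit set for the other genes) to 37.4 CPM (Myl7). The part of counting error in their spread was not tested.

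**Figure D4:**
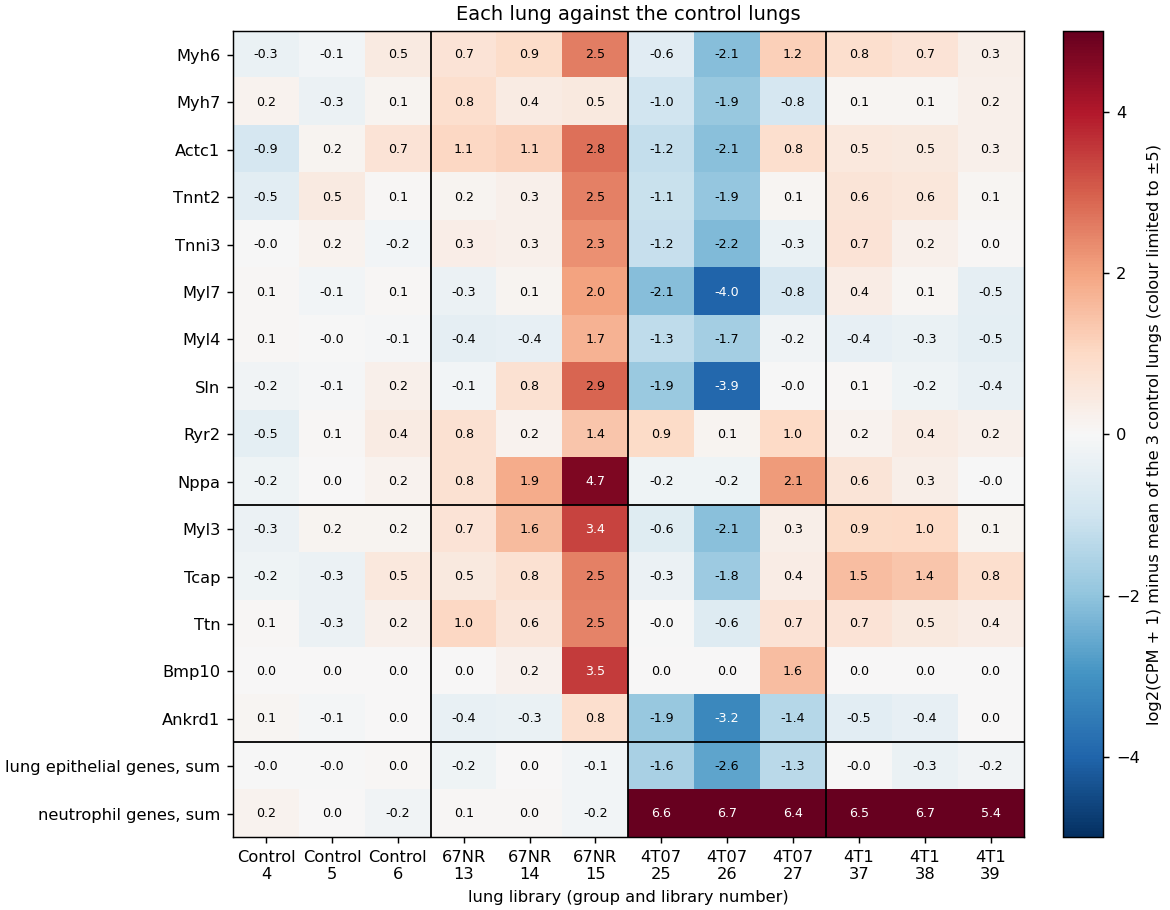
The map gives, for each of the 12 lungs, log2(CPM + 1) minus the mean of the 3 control lungs, in rows for the 10 members, 5 further genes and 2 summed lists, with color limited to 5 in either direction. The column of library 15 is red in all cardiac rows, that of library 26 is blue in most, and the 4T07 columns share a fall in the lung epithelial row.

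The wider cardiac list described the same lungs. Of 36 other cardiac muscle genes 35 were tested, and 15 rose and 0 fell in 67NR against control lungs, with a median log2 fold change of 1.50, beside 2.52% of all genes that rose. Without library 15, 33 were tested, 0 rose and 1 fell (Cox7a1, -1.03), the median was 0.26, and 1.06% of all genes rose. Of the 15 called with all libraries, 7 had a mean of at least 5 CPM over the lungs, Ttn, Tcap, Csrp3, Ldb3, Xirp2, Hspb7 and Mybpc3. Ttn, the giant spring of the sarcomere, stood at 29.9 to 44.3 CPM in control lungs and at 212.8 CPM in library 15 (log2 fold change 1.51, adjusted p = 0.0114, and 0.74, adjusted p = 0.135, without that library), and Tcap, its partner at the Z-disc, at 6.5 to 12.5 and at 52.7 CPM (1.52, adjusted p = 0.0477). In that library Xirp2 reached 25.2 CPM, Csrp3 24.2 CPM and Ldb3 19.5 CPM. Tnnc1, the calcium-binding troponin of heart and slow muscle, stood at 20.5 CPM there but was not called in 67NR lungs (1.17), nor were Myom1 (0.59), Atp2a2 (0.87) and Slc8a1 (-0.08). Mybpc3, the cardiac myosin-binding protein C, was the one gene of the 35 called higher in all 3 tumor groups, from 1.1 to 2.4 CPM in control lungs to 7.8 to 10.4 CPM in 4T07 lungs (2.59, adjusted p = 0.000247) and 5.2 to 12.7 CPM in 4T1 lungs (2.67, adjusted p = 0.00126), and it rose in 67NR lungs too (2.25, adjusted p = 0.00896), though not without library 15 (1.40, adjusted p = 0.106). In 4T07 against control lungs 8 of the 35 fell and 2 rose, where 13.7% of all genes fell and 15.3% rose, and those that fell with a mean of at least 5 CPM were Nebl (-1.38), Nexn (-1.84), Jph2 (-1.56), Tnnc1 (-2.29) and the mitochondrial subunits Cox6a2 (-1.90), Cox7a1 (-2.67) and Cox8b (-2.74). Nebl and Nexn stood at 253 and 185 CPM in library 15, within the ranges of the other control, 67NR and 4T1 lungs (170 to 260 CPM for Nebl and 162 to 217 CPM for Nexn).

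Genes that tell chambers apart were read from smaller lists. Bmp10, a growth factor of atrial muscle, was at 10.3 CPM in library 15, 2.0 CPM in library 27 and 0.2 CPM in library 14, and at 0 in the other 9 lungs. Tbx20 reached 10.3 CPM in library 15 and at most 2.4 CPM elsewhere. Both were named after their values were seen, and the sum of the 12 atrial genes, Tbx5 the most abundant, did not set library 15 apart, at 161 CPM against 164 CPM in library 14 and 26.6 to 148 CPM in the other 10 lungs. The sum of the 7 ventricular genes, Ankrd1 the most abundant, was 299 CPM in library 15 and 15.7 to 151 CPM in the other 11. Neither sum was confined to lung. The ventricular sum was 67.2 to 238 CPM in tumors, though at most 14.8 CPM in scaffolds and 15.9 CPM in spleens. The atrial sum was 42.0 to 57.8 CPM in scaffolds, though at most 14.5 CPM in spleens and 13.5 CPM in tumors. Myl2, the ventricular regulatory light chain, was at 2.7 CPM in library 15 and at most 1.0 CPM in the others, against 142.9 CPM for its atrial counterpart Myl7. Myl3, the essential light chain of ventricle and slow muscle, stood at 52.8 CPM in library 15 and at 0.2 to 14.1 CPM in the other lungs (67NR against control 2.47, adjusted p = 0.0107, and 1.27, adjusted p = 0.16, without library 15). The ventricular genes Irx4, Lrrc10 and Kcne1 were at or under 0.4 CPM in every lung. Of 10 atrial genes tested 2 rose and 0 fell in 67NR against control lungs, and of 4 ventricular genes 1 rose, beside 2.52% of all genes that rose. Without library 15, 0 of 9 atrial and 0 of 4 ventricular genes were called. Tbx5, Dkk3, Tbx3 and Ankrd1, each at 7.8 CPM or more in every lung, fell in 4T07 lungs (-1.65, -1.92, -1.14 and -1.99). In that comparison 2 of 10 atrial, 1 of 4 ventricular and 1 of 5 pacemaker genes tested were called lower, where 13.7% of all genes fell.

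Genes of other tissues that could lie beside a lung were examined with the same libraries. Of all genes tested, 2.52% rose and 1.73% fell in 67NR against control lungs, and 15.3% rose and 13.7% fell in 4T07 against control. Skeletal muscle genes summed to 205 CPM in library 15 and to at least 19.5 CPM in every lung. Of 18 tested, 3 rose in 67NR against control lungs, among them Acta1, the actin of skeletal muscle that heart also makes, at 72.0 CPM in library 15, 20.6 CPM in library 14 and 0.71 to 6.4 CPM in the other 10. In scaffolds the same sum ran from 31.9 to 712 CPM. The fast myosin genes Myh1 and Myh2 were at or under 0.9 CPM in every lung, and Tnnc2 was at or under 0.3 CPM. Cartilage genes of the airway summed to 0 to 0.434 CPM. Among smooth muscle genes Acta2 stood at 142.9 CPM in library 15 and at 44.3 to 87.3 CPM elsewhere, and 3 of 9 rose in 67NR lungs. Without library 15 the counts in 67NR lungs were 0 of 17 skeletal and 1 of 9 smooth muscle genes, the latter Smtn (1.32). Of adipocyte genes, Cfd was highest in library 15 as well, at 238.3 CPM against 14.7 to 191.3 CPM elsewhere, and in 67NR lungs 0 of 6 were called. Of mesothelial and epicardial genes, Tcf21 the most abundant, 0 of 6 were called in 67NR lungs. Of thymus genes 5 were tested and 1, Dntt, was called lower in 67NR lungs, from at most 3 counts in a control lung. In 4T07 against control lungs 3 of the 5 rose, among them Rag1 and Dntt of antigen receptor recombination, and the sum of the list was 34.1 to 48.1 CPM in 4T07 lungs against 10.0 to 13.9 CPM in control lungs. Themis stood at 4.5 to 9.4 CPM over the lungs. Of red blood cell genes, Hbb-bs the most abundant, 2 of 5 rose in 67NR and 5 of 5 in 4T07 lungs. The part of any of these tissues in the levels of the members was not tested.

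The genes most like the members over the 12 lungs were ranked by Pearson's r with the members' mean log2(CPM + 1), as a description over libraries that share their depth and composition. Of 12083 other genes with a mean of at least 5 CPM, the first 10 were Myl3 (r = 0.970), Ldb3 (0.950), Nudcd3 (0.940), Evc (0.931), Cpe (0.919), Amhr2 (0.915), Tmem38b (0.915), Ttn (0.906), Tcap (0.904) and 5330406M23Rik (0.903). Of these, 4 belong to the cardiac lists, Myl3, Ldb3, Ttn and Tcap. Myl3 remained at 0.941 without library 15 and Ttn was at 0.807. The median r was 0.808 over the 17 other cardiac muscle genes at that level, 0.197 over all genes, 0.658 over lung epithelial genes, and -0.468 over neutrophil genes. It was 0.896 over 2 ventricular, 0.676 over 2 atrial, 0.712 over 8 smooth muscle and 0.661 over 5 adipocyte genes. Over 4 mesothelial and epicardial, 4 skeletal muscle and 5 red blood cell genes it was 0.535, 0.482 and -0.476. The 1 pacemaker and 1 thymus gene at that level had 0.763 and 0.252.

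The other tissues served as a background for the lung levels. Of the 10 genes, 10 were higher in lung than in scaffold, against 15.7% of 27656 genes tested, and 9 were higher in lung than in spleen, against 18.2%. In tumor-bearing mice 9 were higher in lung than in tumor, against 17.7%. The members were chosen with earlier results of these data known, so these counts describe the set and do not test it. The median log2 differences over the 10 genes were 3.79, 4.18 and 4.86, beside -0.07, -0.10 and -0.02 over all genes. Myh6 had 0 counts in all 9 tumors, at least 12.7-fold lower than in the lungs of tumor-bearing mice when the tumors are set at 3 counts per library. In spleens it had 1 count in 12 libraries (445-fold lower than in lung in the ratio of pooled counts, counting interval 79.6 to 17624), and in scaffolds 12 counts in 12 libraries. Myl7 had 21 counts in the 12 scaffolds and 11 in the 12 spleens, means of 0.281 and 0.195 CPM beside 37.4 CPM in lung. Myh7 had 28 and 19 counts there, means of 0.379 and 0.345 CPM beside 30.0 CPM in lung. These scaffold and spleen means lie under the level of 3 counts per library.

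**Figure D5:**
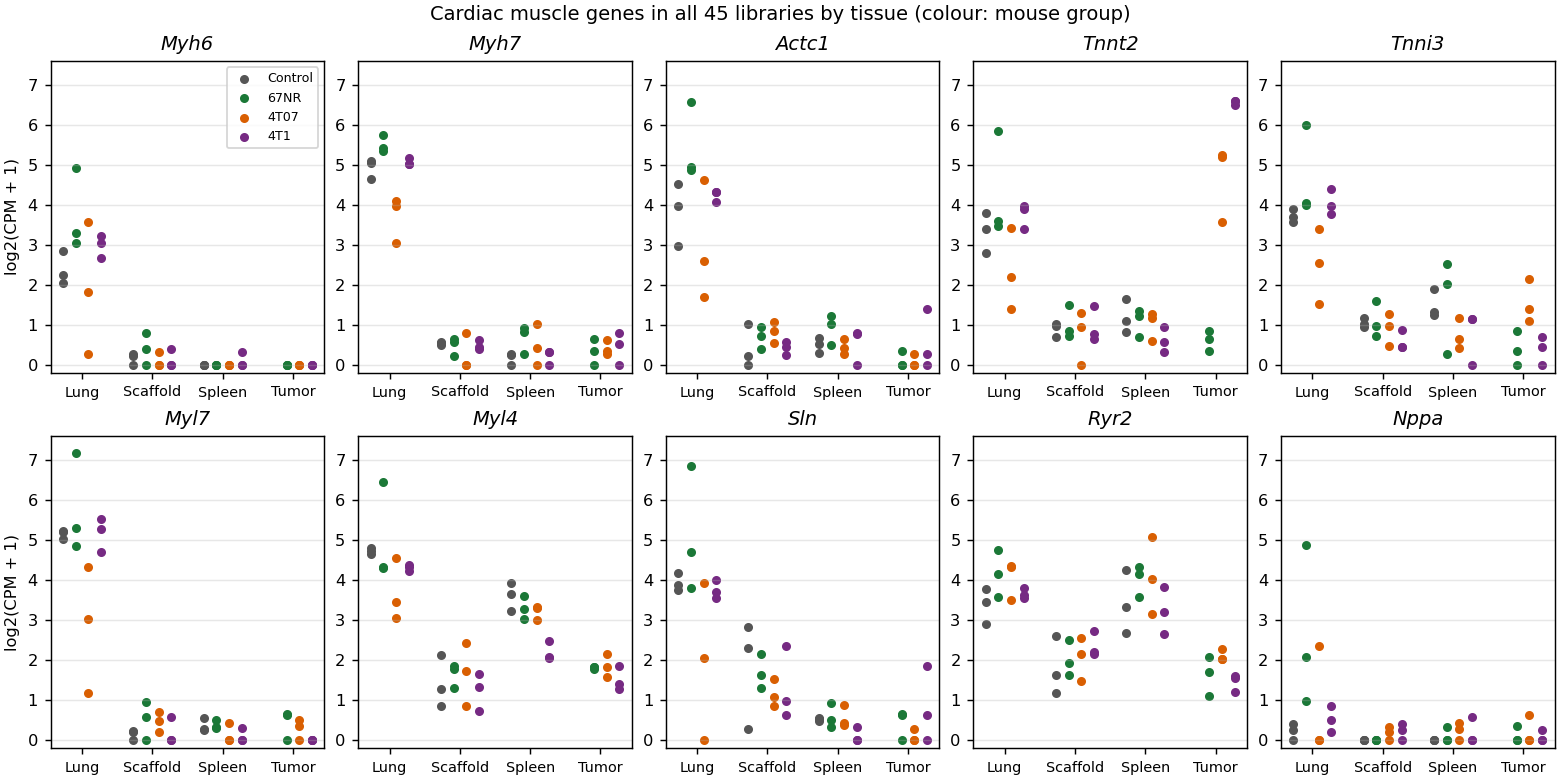
Each panel plots 1 member as log2(CPM + 1) in all 45 libraries, by tissue along the horizontal axis and by group of mice in color. Most members are near 0 outside the lung, the clearest exceptions being Ryr2 and Myl4 in spleen and Tnnt2 in 4T07 and 4T1 tumors. Lower levels above 0 remain for Ryr2, Sln and Myl4 in scaffold (means of 3.38, 2.22 and 1.99 CPM). The same holds for Ryr2 and Myl4 in tumor (2.43 and 2.34 CPM).

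The exceptions were specific genes. Ryr2 was as high in spleen, at a mean of 13.5 CPM with a range of 5.26 to 32.6 CPM, as in lung (log2 difference -0.10 ± 0.20 SE, adjusted p = 0.8). Myl4 had a mean of 8.07 CPM in spleen, 3.08-fold less than in lung. It fell in 4T1 spleens, which stood at 3.12, 3.18 and 4.57 CPM with no overlap with the 8.41 to 14.2 CPM of control spleens (log2 fold change -1.39 ± 0.30 SE, adjusted p = 0.00231), against 10.0% of all genes that fell. It was also lower in 4T1 than in 4T07 spleens (-1.10 ± 0.31, adjusted p = 0.0731, against 1.5% of all genes), a call that was lost without library 8 (a control spleen), 29, 30, 40, 41 or 42, while 2 were called without library 28. Among the other 4 spleen comparisons 0 of 8 members tested were called. The smallest adjusted p was 0.028, for Myl4 in 4T1 against 67NR (-0.95 ± 0.30), which was short of a 2-fold change, and the unadjusted p was under 0.05 for 1 member each in that comparison and in 4T07 against control. In these comparisons 2.26% (67NR against control), 18.6% (4T07 against control), 14.7% (4T07 against 67NR) and 20.7% (4T1 against 67NR) of all genes were called, and DESeq2 called 0 members in each. Sln in scaffold ranged from 0.21 to 6.14 CPM without a difference between groups that passed the test.

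Tnnt2 was the one member to be high in tumors. It stood at 0.81, 0.28 and 0.56 CPM in 67NR tumors, with 1 to 3 counts a library, at 10.8, 35.7 and 37.2 CPM in 4T07 tumors, and at 96.9, 90.0 and 95.8 CPM in 4T1 tumors. The groups did not overlap, and 4T1 tumors were above 56.3 CPM, the highest lung. All 3 comparisons passed an adjusted p under 0.05: the log2 fold change was 5.35 ± 0.56 SE in 4T07 against 67NR (adjusted p = 3.14e-06, against 17.2% of genes that rose), 7.15 ± 0.53 in 4T1 against 67NR (adjusted p = 8.60e-08, against 11.6%) and 1.81 ± 0.32 in 4T1 against 4T07 (adjusted p = 0.00124, against 3.82%). The other troponin and myosin members stayed low there, Tnni3 at no more than 3.41 CPM and Myh7 at no more than 0.73 CPM.

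In scaffolds 0 of 9 members tested were called in any of 6 comparisons by edgeR or DESeq2, and 1 had an unadjusted p under 0.05, in 4T07 against control, by either tool. The shares of all genes called were 0.0% (67NR against control), 7.44% (4T07 against control), 0.0226% (4T1 against control), 5.85% (4T07 against 67NR), 0.0226% (4T1 against 67NR) and 1.0% (4T1 against 4T07). Whether the lung differences were particular to lung was tested as the difference of each effect between lung and scaffold in one fit of all 45 libraries. Of the 10 genes 0 were called for any of the 4 differences, against 0.00723% of all genes for 67NR against control, 14.0% for 4T07 against control, 0.911% for 4T1 against control and 12.3% for 4T1 against 4T07. At an unadjusted p under 0.05 there were 1, 2, 0 and 1 members, respectively. Without library 15, 2 were lower for 4T07 against control and 1 higher for 4T1 against 4T07. Scaffold levels of the members were low, at means of 0.0755 CPM (Nppa) to 3.38 CPM (Ryr2). The differences between lung and scaffold carried wide errors, for example -0.58 ± 1.00 for Myh7 in 4T07 against control. With all libraries, a difference between lung and scaffold in how the members respond was not detected, and the reason was not tested.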

How the data were processed

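The 45 libraries were 3′ tag RNA libraries (Lexogen QuantSeq with unique molecular identifiers, 1 tag per transcript) of flash-frozen tissue. Whole-number counts per gene symbol were deposited; per the labels the submitters' notes name Trim Galore 0.5.0, STAR 2.6.0 and featureCounts. Genome build, strand setting and collapsing of identifiers are not given in the sources used here. The table held 55487 lines, of which 120 repeated a symbol, and 45 columns, all used.

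Levels are counts per 1000000 of a library's total (CPM). Contrasts were fitted on counts with edgeR 4.0.16 (R 4.3.3; TMM, quasi-likelihood F test, Benjamini-Hochberg over all genes tested), in 1 fit of the 12 lungs and 1 each of scaffolds, spleens and tumors, after dropping genes whose counts over that tissue summed to 10 or fewer. Calls needed a fold change over 2 and an adjusted p under 0.10, or under 0.05 in tumors. Tissues were compared in 1 fit of all 45 libraries. DESeq2 1.42.0 was an alternative, beside other scalings, filters and left-out libraries. Correlations used log2(CPM + 1) and 100000 two-sided permutations. Share intervals are exact Clopper-Pearson 95% intervals (scipy 1.17.1). The test was checked on simulated counts, which held less spread between libraries than most members and no outlying library. The check therefore does not cover genes as variable as the members. Of 45 replicate pairs 0 were identical, and the lowest chi-square per degree of freedom was 3.53.

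The labels number the libraries but do not say that samples of a group came from separate animals (the study's methods state 3 mice per condition), so p-values measure the spread between these samples. The members and gene lists were chosen with earlier results of these data known. Named genes were all members, cardiac, atrial, ventricular and pacemaker list genes of at least 5 CPM on average in lung and those at 0, the 10 genes most like the members' mean, and the most abundant genes of the other lists.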

Additional observations from a re-analysis of the deposited data

How the results depend on the processing

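The counts of members called rested on few lungs. With DESeq2's Wald test 1 of 10 was higher in 67NR against control (5 by edgeR), where 1.60% of all genes were higher. In 4T1 against 67NR it called 0 (3 by edgeR). Without a count filter 5 were lower in 4T1 against 67NR, where 1.48% of all genes were lower. Requiring 10 counts in every lung left 4 members to test. In 67NR against control 1 rose (1.39% of all genes rose), and in 4T07 against control 1 fell (12.9% of all genes fell). In 4T07 against 67NR 3 fell (13.8%), in 4T1 against 67NR 1 fell (0.766%), and in 4T1 against 4T07 1 rose (11.5% of all genes rose). Without libraries 15 and 26 the counts were 0, 1, 2 and 0 in the first 4 of these comparisons, and Nppa in 4T07 against 67NR turned to 0.13. Scaling to lung epithelial genes gave 0 lower in 4T07 against control, 3 lower in 4T07 against 67NR and 0 higher in 4T1 against 4T07. It reversed Myh7 (0.54) and Tnni3 (0.50) in 4T07 against control, and Myh7 (-0.21) and Tnnt2 (-0.13) in 4T1 against 4T07. Both of these settings were chosen after seeing the data. Leaving out 1 library at a time gave 0 to 7 in 67NR against control, 1 to 8 in 4T07 against control, 5 to 9 in 4T07 against 67NR, 0 to 5 in 4T1 against 67NR, 2 to 7 in 4T1 against 4T07 and 0 in 4T1 against control. In spleens it gave 0 to 1 in 4T07 against control, 0 to 1 in 4T07 against 67NR, 0 to 2 in 4T1 against 67NR and 0 to 2 in 4T1 against 4T07, and in tumors 1 to 2 in 4T07 against 67NR (2 without library 19 or 33). For the lung minus scaffold differences, leaving out library 15 gave 2 in 4T07 against control and 1 in 4T1 against 4T07. Other than the smaller number of genes or samples that a setting leaves, the cause was not tested. No paired analysis was possible because the labels number the libraries from 1 to 45, so that groups share no replicate number, and do not link tissues of 1 mouse. The counts of Nppa, Myh6 and Sln in single lungs were as low as 0 or 1, which limits what could be seen in 4T07 lungs.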

Other observations

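Genes of muscle-type mitochondria and of fat cells were low in 4T07 lungs. Cox7a1, a muscle isoform of a cytochrome oxidase subunit, had a log2 fold change of -2.67 in 4T07 lungs, -0.17 in 67NR lungs and -0.59 in 4T1 lungs against control. Cox8b gave -2.74, -0.06 and -0.83. Adipocyte genes fell in the same lungs, 5 of 6 in 4T07 (median -2.13) and 4 of 6 in 4T1 (median -1.37), where 13.7% and 1.05% of all genes fell, with Cfd, the secreted complement factor D, at -2.25 and -1.41.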
